A study of Caenorhabditis elegans with 8 samples.

Results

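Of 1207 genomic regions specific to worms with FLAG-tagged MSTR-1, 186 (15.4%, exact 95% binomial interval 13.4 to 17.6) lay in protein-coding genes of Caenorhabditis elegans that have no gene name. Such genes carry only a sequence name, such as ZC247.1, which gives the genomic clone and a number on it. A region was taken in when the RefSeq WBcel235 protein-coding gene it overlapped most had a symbol of this kind. The 186 regions fell in 152 genes. A further 19 regions lay equally in an unnamed and a named gene, so the rule does not settle them, and they are described apart. Another 994 regions lay in named genes and 8 in no protein-coding gene.

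The regions come from RNA immunoprecipitation followed by sequencing (RIP-seq), in which a tagged protein is crosslinked to RNA in the animal, pulled down through its tag, and the RNA that comes with it is sequenced. The tagged strain, WD656, carries on49, an allele of F22D6.2 on chromosome I that encodes MSTR-1::3xFLAG, and the control strain is N2, the wild type, which has no FLAG. All groups were young adults at 25 °C, crosslinked with 2% formaldehyde for 30 min. The 8 samples were RIP and input libraries from whole worm lysate of either strain, with 2 replicates in each of 4 groups. The deposited table holds 1 value per region and none per library. All names in it refer to the tagged strain's second RIP replicate, so no value below has a replicate error, no depth per sample can be given, and no test between libraries was possible. Since the RNA came from whole worms, a transcript bound in few cells and one bound weakly in many cannot be told apart, nor can fewer cells of a type and less RNA per cell.

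In C. elegans, gene names of the form abc-1 are given mostly after a mutant, a product or a family has been described. Genes left with a sequence name include genes of unknown function, genes shared only among nematodes, and genes of well known enzymes that no worm laboratory has named. The class is therefore defined by the state of its annotation and not by a pathway.

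Each region has a fold, the authors' ratio of treatment over control at its summit, and a −log10 q from the authors' caller. The reads behind them were recovered by solving both values for the read pileup and the control level. The lowest control level in the list was 13.5 reads, called the control floor here. Intervals on pileups are exact 95% Poisson intervals, and like the binomial ones they cover counting error only. Positions are those of the deposited table, whose starts count from 0, rewritten to count from 1, and no build is named for them.

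The highest fold of the whole list belonged to an unnamed gene. ZC247.1, on chromosome I, had a region at 10264454 to 10264935 with a fold of 5.66, from 81 reads (64.3 to 100.7) over the control floor. C17H12.8 came next among unnamed genes, at chromosome IV, 6818724 to 6819958, with a fold of 4.76 from 101 reads (82.3 to 122.7) over 20.4. Of the 23 regions in the list with a fold of at least 4, 6 were in unnamed genes, which held 15.4% of all 1207 regions. The other 4 were those of D1054.10 (fold 4.22, 84 reads), T04F3.1 (4.21, 60 reads), H40L08.2 (4.16, 120 reads) and F09B12.3 (4.07, 58 reads). The region of H40L08.2 lies wholly in H40L08.7 too, a gene that also has no name.

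**Figure D1:**
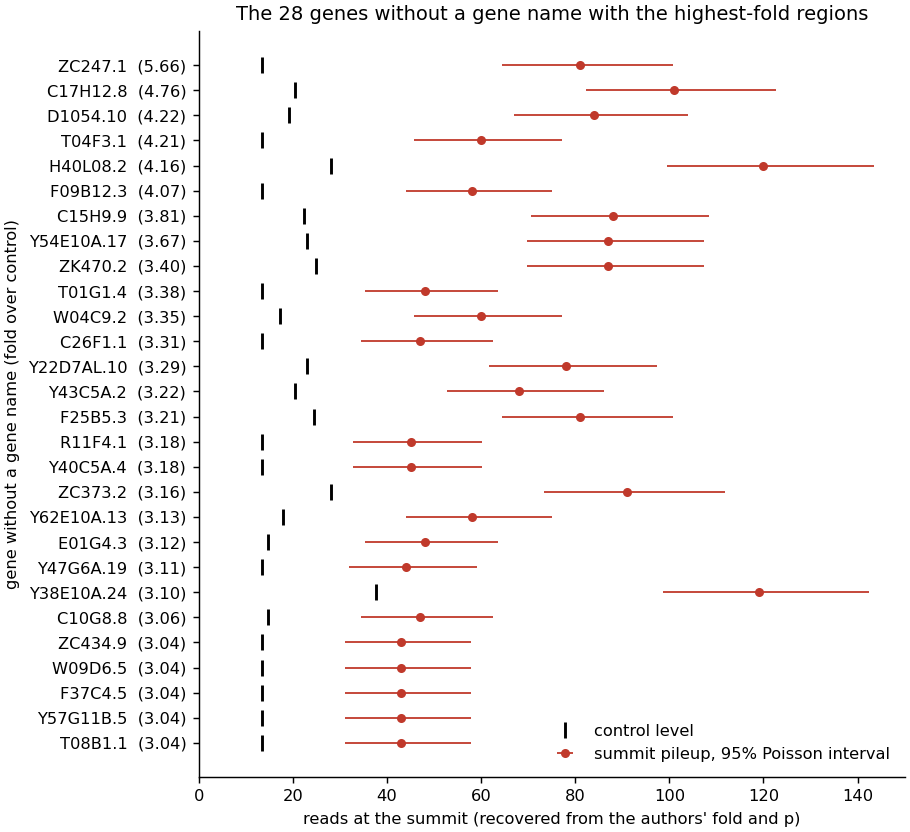
Reads at the summit with exact 95% Poisson intervals (points and bars) and control level (ticks) for the 28 genes without a gene name whose best region reached the fold of the 25th gene, with the authors' fold in brackets. ZC247.1 leads with a fold of 5.66, and the 5 genes at the end share a fold of 3.04.

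The next genes by fold were C15H9.9 (3.81), Y54E10A.17 (3.67), ZK470.2 (3.40), T01G1.4 (3.38), W04C9.2 (3.35) and C26F1.1 (3.31). Their pileups ran from 47 to 88 reads. Below them were the first genes with a well known product. Y22D7AL.10, the co-chaperonin that caps the mitochondrial chaperonin, had a fold of 3.29 from 78 reads over 23.0. F25B5.3, a cytosolic nucleotidase, had 3.21, R11F4.1, a glycerol kinase, 3.18, and Y62E10A.13, the phosphoserine phosphatase that ends serine synthesis, 3.13. The folds of Y43C5A.2 (3.22), Y40C5A.4 (3.18), ZC373.2 (3.16), E01G4.3 (3.12), Y47G6A.19 (3.11), Y38E10A.24 (3.10) and C10G8.8 (3.06) lay between or just below these. F37C4.5, T08B1.1, W09D6.5, Y57G11B.5 and ZC434.9 shared one fold of 3.04, since each had 43 reads over the control floor. Of these 28 leading genes, 4 have a role that could be named here.

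The median fold of the 186 regions was 2.35, with quartiles of 1.93 and 2.84 and a range of 1.17 to 5.66. A fold of at least 3 was found in 35 regions (18.8%, against 10.7% of all 1207). There were 99 from 2 to under 3 (53.2% against 47.7%) and 52 below 2 (28.0% against 41.6%). The median summit pileup was 47.5 reads, with quartiles of 36.3 and 81 and a range of 26 to 1566. The median pileup was 56 reads in regions of named genes and 55 over all 1207 regions. Of the 186, 64 (34.4%, 27.6 to 41.7) sat at the control floor, against 304 of all 1207 (25.2%, 22.8 to 27.7). At the floor the fold is set by the pileup alone: 26 reads gave 1.86, 33 gave 2.35 and 43 gave 3.04. Members with the same fold at the floor therefore have the same evidence and no order among them.

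Set beside named genes, the unnamed class had the higher median fold and the lower coverage. Regions of named genes had a median fold of 2.07 (quartiles 1.74 and 2.46), 0.28 below that of unnamed genes. In unnamed genes 72.0% of regions (65.0 to 78.4) had a fold of 2 or more, and in named genes 55.8% (52.7 to 58.95). The median control level was 18.8 reads in unnamed and 24.3 in named genes, and a level above 100 was found in 14 of 186 (7.53%) against 199 of 994 (20.02%). Folds were lower where the control level was higher: the lowest fold in unnamed genes was 1.86 at the floor and 1.17 above a control level of 300. At a low control level only a higher fold passes the authors' threshold, so these minimums are set by it. No p-value is given for these differences, because all regions share 1 set of values from the same libraries.

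**Figure D2:**
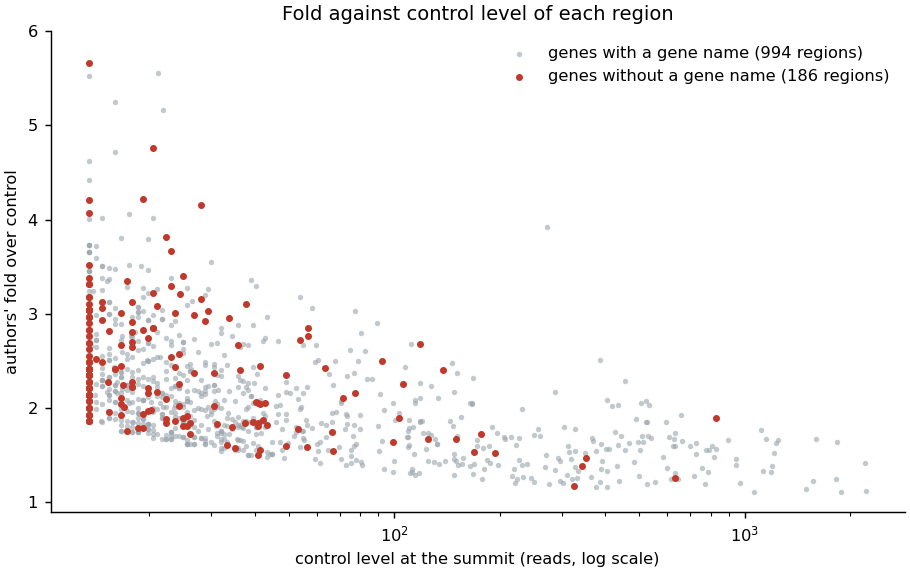
Authors' fold over control (vertical axis) against the control level at the summit in reads (horizontal axis, log scale) for each region, with 186 regions of genes without a gene name in red and 994 of named genes in grey. Red points lie mostly at the left, with 64 at the control floor of 13.5 reads, and 5 lie above a level of 300.

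Within classes of control level the difference was mostly smaller than the 0.28 found across classes and did not run one way. The differences were 0.069 at the floor, 0.15 up to 50, 0.31 up to 100, 0.11 up to 300 and −0.17 above it. At the floor, 64 regions of unnamed genes had a median fold of 2.42 and 234 of named genes 2.35, the pileups of 34 and 33 reads. From the floor to a level of 50 the medians were 2.28 (96 regions) and 2.13 (481 regions). Unnamed genes were also higher in the next classes: 2.14 (12 regions) against 1.82 (80) at levels of 50 to 100, and 1.72 (9 regions) against 1.61 (99) at 100 to 300. Above 300 the order was turned, with 1.39 in 5 regions against 1.55 in 100. The unnamed share of all regions fell from 21.1% (16.6 to 26.1) at the floor to 4.63% (1.52 to 10.5) above 300. In each class the quartile ranges of the 2 kinds of region overlapped.

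**Figure D3:**
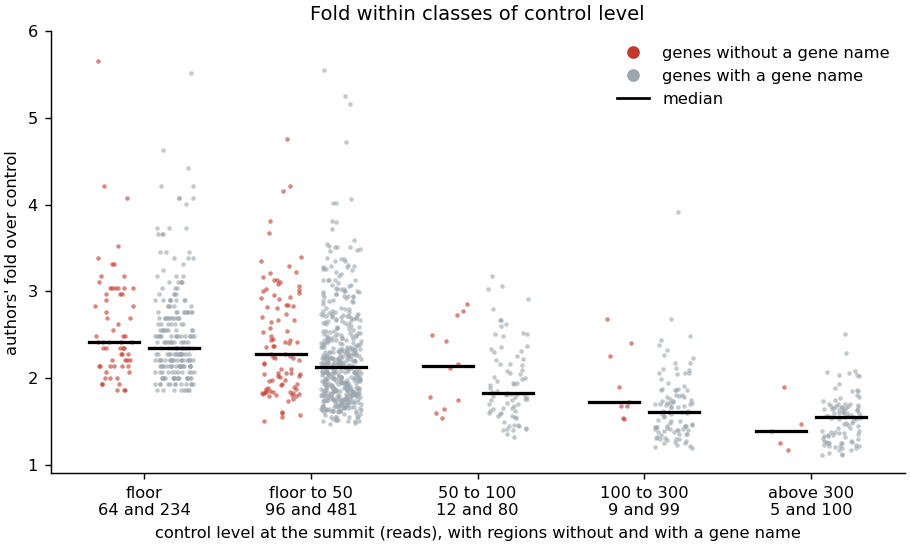
Authors' fold (vertical axis) of each region in 5 classes of control level in reads (horizontal axis, with the number of regions of genes without and with a gene name), points spread sideways for view and black lines at the medians. The red median is above the grey one in 4 classes and below it above 300 reads.

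A few unnamed genes were covered deeply. Y82E9BR.3, which encodes the membrane ring subunit of the mitochondrial ATP synthase, had the largest −log10 q of the class, 112.9, from 1566 reads (1489 to 1646) over 827 and a fold of 1.89. Its region lay at chromosome III, 1419204 to 1419532. R02F2.1 followed with a −log10 q of 50.2 from 320 reads over 118.7, and its fold of 2.68 was the highest of the 14 members with a control level above 100. R12E2.7 had a −log10 q of 42.6 (332 reads over 137.2, fold 2.41). After H40L08.2, C17H12.8 and ZC247.1 came K12H4.7 (31.8), R06C1.4 (28.7), which encodes an RNA-binding protein of the RRM type, ZK813.1 (26.4) and D1054.10 (25.6). Beside R02F2.1 and R12E2.7, the members with the highest folds above a control level of 100 were a second region of ZC247.1 (fold 2.25), ZK632.9 (1.90) and Y82E9BR.3. By q, 1 of the 25 leading regions of the list was in an unnamed gene, and by fold 7 of 25 were.

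Genes with a known product were grouped by role from background knowledge. The groups were put together after the values had been seen and hold the 31 of 152 genes whose role could be given with confidence, with 40 regions. Most of these roles were worked out on the human or yeast counterparts and not in the worm. The median fold of these 40 was 2.15, and that of the 146 regions in the other 121 genes was 2.41.

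The 5 unnamed genes for subunits of the respiratory chain and the ATP synthase, which make the cell's ATP, had folds from 1.53 to 2.05. Some named genes of the same complexes had higher folds in the list, such as ndub-3, a subunit of NADH dehydrogenase, with 3.66 at the floor. Its control level of 13.5 reads was unlike those of the 5 unnamed genes, 40.9 to 827. At a similar level, ucr-1 of the cytochrome bc1 complex had a fold of 2.74 over 42.8 reads, against 2.05 over 40.9 for F45H10.2. The other named genes of these complexes were not matched by control level, and whether that level accounts for the folds was not tested. Over all named genes the median fold was 2.35 at the floor and 1.61 at levels of 100 to 300. Y82E9BR.3, R53.4, T02H6.11, F45H10.2 and C16A3.5 each had 1 region. R53.4, subunit f of the ATP synthase, had a fold of 1.53 from 296 reads over 193. T02H6.11, of the cytochrome bc1 complex, had 1.54 from 261 reads over 169, and C16A3.5, an accessory subunit of NADH dehydrogenase, had 1.75 from 117 over 66.4. F45H10.2, a small subunit of ubiquinol-cytochrome c reductase, was highest at 2.05. None of the 5 was at the floor, and their median control level was 169 reads.

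Other mitochondrial proteins, mostly enzymes, were less deeply covered. Beside the co-chaperonin gene Y22D7AL.10, they were Y37E3.17, a dimethylglycine dehydrogenase, with folds of 2.48 and 1.96, F54D5.7, a glutaryl-CoA dehydrogenase (2.27), and B0250.5, a hydroxyisobutyrate dehydrogenase (2.25). K11H3.3, the tricarboxylate carrier of the inner membrane, had 2.21, and C05C10.3, which transfers CoA to ketone bodies, 1.89. These 7 regions had control levels from 13.5 to 23.0 reads.

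Enzymes of carbohydrate and phosphagen metabolism had folds from 1.17, the lowest of the class, to 3.18. At the floor were 6 of their 8 regions: R11F4.1, C36A4.4, which makes the activated sugar for chitin (2.62), T25B9.9, the phosphogluconate dehydrogenase of the pentose phosphate pathway (2.21), the amylase gene C50B6.7 (2.14 and 2.002), and ZK1058.3, the uridylyltransferase of galactose breakdown (1.86). The arginine kinases, which buffer ATP as creatine kinase does in vertebrates, had the others. W10C8.5 had a fold of 1.82, and F46H5.3 had 1.17 from 381 reads (343.7 to 421.2) over 325. F46H5.3 was the member nearest the authors' threshold, with the lowest fold and the lowest −log10 q (1.32) of the class, and Y47G6A.18 (1.39, fold 1.75) came next. The region of T25B9.9, 4648 bp wide, was the widest of the class and also reached the named gene inpp-1.

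The peptidases, which cut proteins and peptides, were led by K12C11.1, a prolidase (2.53), and K12H4.7, a serine peptidase. K12H4.7 had 3 regions with folds of 2.497, 1.67 and 1.64, from 231, 209 and 164 reads. Y16B4A.2, a serine carboxypeptidase, had 2.23, F56F10.1, a serine peptidase, 1.73, and R07E3.1, a papain-like cysteine peptidase, 1.51. In the group of translation, RNA binding and folding, C37C3.2, the initiation factor eIF5, had folds of 2.93 and 1.59. R06C1.4 had 2.85 from 164 reads over 56.8, and F44E5.5, an Hsp70 chaperone, 2.16 from 168 over 77.2. F44E5.4, a gene of the same family beside it with a span of 2205 bp against 2200, had no region, and the treatment of reads that fit both copies is not stated. F45D11.16 had 2 regions (2.21 and 1.88), and F45D11.15, with an equal span of 1839 bp, had none. Whether these genes share sequence was not checked. Of the remaining genes with a role, T26C12.1, an acetolactate synthase-like protein, had 2.69 and 2.28, ZK550.6, a phytanoyl-CoA dioxygenase of fatty acid breakdown, 2.21 and 1.86, and F10D11.6, of the BPI and LBP family of lipid-binding proteins, 2.35, 1.94 and 1.79.

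Several unnamed genes carried more than 1 region. Of 152 genes, 127 had 1, 19 had 2, and 6 had at least 3. T04F3.1 had 5 regions that together covered 82.02% of its span of 14047 bp, with folds of 4.21, 2.65, 2.57, 2.26 and 2.82 from its lower-numbered end. ZC247.1 had 4 regions that covered 23.03% of a span of 14929 bp. The region with the list's highest fold began 148 bp from the lower-numbered end, and the last, with a fold of 3.52, lay near the other end. Between them, one with 240 reads over 106 had a fold of 2.25, so that coverage and fold differed widely within the one gene. Y47G6A.19, K12H4.7, F10D11.6 and C18B2.5 had 3 regions each. C18B2.5 had folds of 1.58, 1.84 and 2.06, with pileups of 56, 76 and 89 reads. Among the genes with 2 regions, C17H12.8 (4.76 and 3.08), F09B12.3 (4.07 and 3.31), T01G1.4 (3.38 and 2.42) and C10G8.8 (3.06 and 3.01) had the highest folds. At least 2 regions were found in 25 of 152 unnamed genes (16.4%) and in 181 of 727 named ones (24.9%). The genes with at least 2 regions were longer, with a median span of 3609 bp in unnamed and 5255 bp in named genes.

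**Figure D4:**
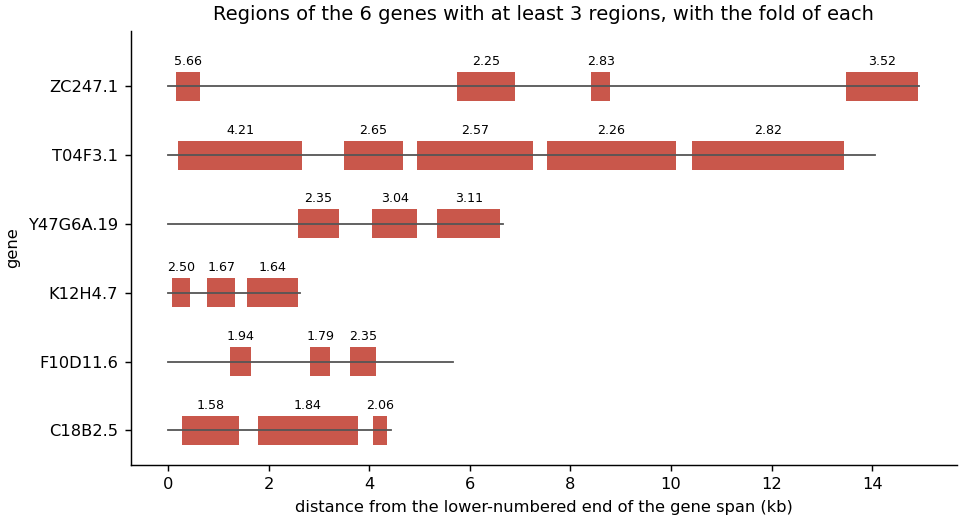
Regions (red bars) along the span (line) of the 6 genes without a gene name that had at least 3 regions, by distance from the lower-numbered end in kb, with the authors' fold above each. The strand of the genes is not in the gene table, so the left end is not always the start of the transcript. T04F3.1 has 5 regions along its span and ZC247.1 has 4.

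Unnamed genes carried a region less often than protein-coding genes as a whole. A region lay mostly in 152 of 8700 unnamed genes (1.75%, 1.48 to 2.04), against 4.4% of all 19983 protein-coding genes and 6.44% of the 11283 named ones (5.997 to 6.91). With any overlap counted, the share was 2.09% of unnamed genes, 4.77% of all and 6.84% of named genes. Expression levels were not used, so both shares are of annotated genes, whether transcribed in young adults or not. The share was lower in unnamed genes in each of 6 span classes, from 0.71% (6 of 851) against 2.39% in genes up to 500 bp, to 4.23% (14 of 331) against 11.03% in genes above 8000 bp. The gap was widest from 501 to 1000 bp, with 1.69% (27 of 1598) against 9.38%. The intervals overlapped only in genes up to 500 bp. Genes with more RefSeq transcripts carried a region more often in both classes: 1.35% of unnamed genes with 1 transcript, 2.78% with 2 and 4.87% with 3 or more.

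**Figure D5:**
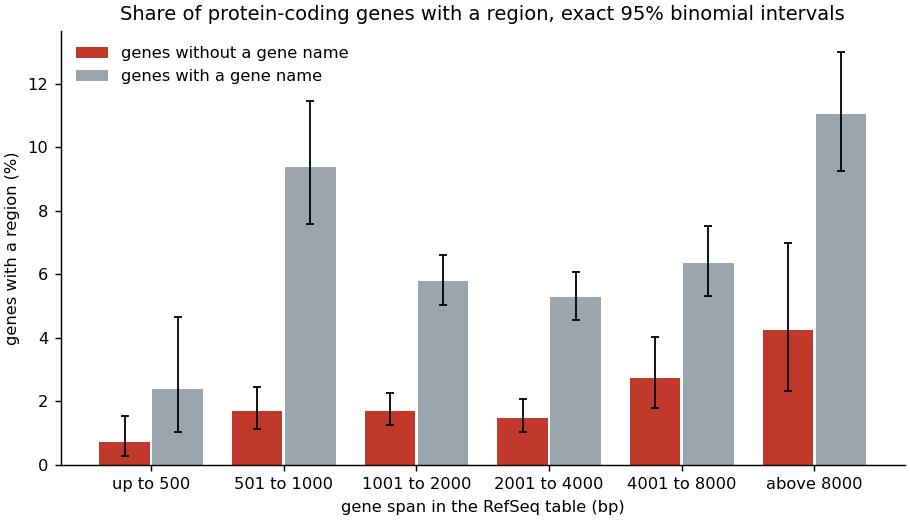
Share of protein-coding genes with a region (bars, percent) in 6 classes of gene span in bp, with exact 95% binomial intervals, for genes without a gene name in red and with one in grey. The red bar is the lower one in each class, 1.69% against 9.38% from 501 to 1000 bp.

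By chromosome, V held the most regions of unnamed genes. There were 47 on V (in 38 genes), 30 on III, 29 each on IV and X, 28 on I and 23 on II. On V they made up 22.2% of all regions (16.8 to 28.4), and on the other chromosomes 12.6% to 17.1%. As a share of the unnamed genes on each chromosome, III was highest with 2.38% (26 of 1091) and II lowest with 1.36% (21 of 1546), and V had 1.87% (38 of 2037). All these intervals overlapped. Named genes with a region were least frequent on V, 4.50% of 2958, so that V was where the shares of both kinds of gene lay closest. The median fold in unnamed genes was lowest on II, 1.93, where it was below that of named genes, 2.07. On the other 5 chromosomes it was higher, from 2.17 on III to 2.45 on I and X.

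The widths of regions overlapped widely between unnamed and named genes. The median was 546.5 bp (quartiles 366 and 1079, range 231 to 4648) in unnamed genes and 662.5 bp (quartiles 401 and 1093.75) in named genes. The genes under them were shorter, with a median span over regions of 2192.5 bp against 3262.5 bp, and a region covered a median of 28.3% of the gene's span against 22.03%. At the control floor the widths were further apart, 507 bp against 841.5 bp. Summits lay a median of 28.6% of the span from the nearer gene end, against 26.3% in named genes. Which end is the start cannot be said, as the gene table has no strand.

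A few regions also covered other genes. In 5 the region overlapped a named protein-coding gene in part: those of F49C12.11 (fold 2.98, with nemt-1), C25A1.16 (2.42, with nola-3), T25B9.9, C08F8.9 (2.14, with rap-3) and T28D9.1 (1.54, with twk-49). An annotated non-coding gene was overlapped by 12 of the 186, 6.45% against 7.34% in named genes. None held a snoRNA (0 of 186, which allows up to 1.61%), and 13 of 994 in named genes did (1.31%, a share within that limit). The region of W09D6.5, at chromosome III, 11088511 to 11091240, held sls-2.14 and sls-2.15, which are annotated as snRNA and encode copies of the spliced leader that worms join to the 5′ end of downstream operon transcripts. In T04F3.1 the region with a fold of 4.21 overlapped the non-coding B0240.5, in ZC247.1 that with 3.52 overlapped T20F10.10, and in C17H12.8 the leading region held the piRNA gene 21ur-13425. Without strand, reads of these features cannot be separated from those of the host gene.

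Some unnamed genes with regions lay side by side. In 3 cases adjacent protein-coding genes both had one: C16A3.6 and C16A3.5 (102 bp apart, folds 3.01 and 1.75), R10E4.11 and R10E4.9 (580 bp, 2.07 and 2.35), and ZK813.7 and ZK813.1 (1113 bp, 2.96 and 2.77). On 10 clones 2 genes each had a region, 20 of the 152 genes, and no clone had more.

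The 19 regions that the rule leaves unsettled had folds from 1.17 to 4.65 with a median of 2.14. Highest was a region at fold 4.65 that lies wholly in both rbm-7 and Y37D8A.19, from 164 reads over 34.5. In 3 of them the named gene encodes a cuticle collagen: col-107 with C34H4.5 (1.48), col-14 with C46A5.4 (1.32) and col-138 with C52D10.3 (1.17), with 464 to 1079 reads. Others paired W07E11.1 with the neuropeptide gene flp-28 (3.04) and F42A10.9 with efk-1, an elongation factor kinase (2.48). None of these 19 is counted among the 186 regions or the 994 of named genes. They are part of the totals over the whole list and of the shares by any overlap.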

How the data were processed

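RIP-seq was done on 8 samples in 4 groups (tagged and N2, RIP and input, 2 replicates each). The authors deposited 1 table of regions without a header, in the layout of MACS2 narrow peaks: a position, a score, a fold (ratio) over control, p-value and q-value as −log10, a summit offset and an unlabelled column. The deposited score restates the −log10 q and was not used further. STAR and deepTools were used, per the submitters' processing notes. Not given in the sources used here are the caller, its control, the build and how strain-specific regions were picked. How the control was made can shift every fold.

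Pileup and control level were solved from fold = (pileup + 1) / (control + 1) and the p-value as a Poisson tail above the pileup. Of 1207 pileups 1166 (96.6%) came out whole, with a tolerance of 0.02. On simulated data made with the same formulas for the 186 regions, 186 pileups came back. This tests the solving, not whether the caller used the formulas. Regions were assigned by position to 19983 protein-coding genes of the RefSeq WBcel235 table, with at least 1 shared base, to the gene of largest overlap. Named genes here include the few with other symbol forms and the mitochondrial ones. No genome, strand, exons or protein sequences were used, so the planned protein comparison was not run, and neither was the edgeR interaction test, which needs counts per library.

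Genes named are the 25 with the highest-fold region and those tied with the last, the 10 with the largest −log10 q, the 10 with the most regions, the 5 highest-fold regions with a control level above 100, the member nearest the threshold and those whose region reaches another protein-coding gene. Others, including the role groups, were chosen after their values were seen. The regions, lists and comparisons were chosen with earlier results of these data known. Software was matplotlib 3.10.9, scipy 1.17.1, pandas 2.3.3 and numpy 2.4.6 under Python 3.11.15. Alternatives covered the gene assignment, ties, the q threshold, coverage and collagens.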

Additional observations from a re-analysis of the deposited data

Results flagged for a closer look

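The last column of the deposited table, which no comparison above uses and whose meaning is not stated, was above 0 in 21 of 186 regions of unnamed genes (11.3%, exact 95% interval 7.13 to 16.7). It is given here because it is a part of the data that the report leaves out, and its being above 0 says nothing of what it measures. It was 1 in 20 regions and 2 in 1, the widest region of C18B2.5. In named genes it was above 0 in 27.2% (24.4 to 30.0). The regions of unnamed genes above 0 had a median pileup of 164 reads and a median fold of 1.89, and those at 0 had 45 reads and 2.35. They include the leading region of ZC247.1, C15H9.9, Y22D7AL.10 and 4 of the 5 regions above a control level of 300. By control level the share in unnamed and named genes was 1.56% and 2.56% at the floor, 7.29% and 17.05% up to 50, 33.3% and 51.3% from 50 to 100, 55.6% and 69.7% from 100 to 300, and 80% and 72% above 300. What the column was computed against was not tested.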

How the results depend on the processing

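No paired analysis was possible because values per library were not part of the table analysed, and no replicate could be left out either. The planned protein match and its limits, the restriction to genes with a protein sequence and the interaction test were not run. Of 30 alternatives compared, 23 fell inside the interval of the value given or, for counts, within a set ratio of it. Such an interval can be wide: for the difference in width it ran from −213 to 20 bp. With a −log10 q of at least 5, 104 regions of unnamed genes were left by construction, in 1.03% of unnamed genes. Their median fold was 2.79, with a difference from named genes of 0.45. This limit also raises the fold needed to pass, to 2.55 at the floor, so the higher median follows from it in part. How much of the larger difference does was not tested. At the control floor alone the difference in fold was 0.069 and that in width −334.5 bp, against 0.28 and −116 bp. Above the floor they were 0.28 and −67.5 bp, with control levels not matched. By class of control level above the floor, the difference in fold ran from −0.17 to 0.31. With any overlap counted, 2.09% of unnamed genes had a region, against 4.77% of all and 6.84% of named genes. With the 19 unsettled regions counted in, there were 205 regions and the difference in fold was 0.21. The alternatives on ties, on collagens, above the floor, on width at the floor, on any overlap and on genes with 1 region were chosen after seeing the data. Pileups under 100 reads limit the precision of most folds.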
